A study of Mus musculus with 5 samples.

Results

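Calcium is stored in the endoplasmic reticulum of neurons and leaves it through 2 families of channels, the inositol trisphosphate (IP3) receptors Itpr1, Itpr2 and Itpr3, which open when a receptor at the cell surface causes IP3 to be made, and the ryanodine receptors Ryr1, Ryr2 and Ryr3, which open on a rise of calcium itself. SERCA2, the pump encoded by Atp2a2, returns calcium to the store. When the store runs low, STIM proteins in its membrane sense the loss and open ORAI channels in the plasma membrane, a route called store-operated calcium entry. NEUROD2, a basic helix-loop-helix (bHLH) transcription factor of cortical excitatory neurons, belongs to a class of proteins that bind DNA at E-boxes, sequences of the form CANNTG. Stim1, whose intron 2 holds a strong NEUROD2 site, is set here beside 10 other genes of the same cycle of release and refill: Itpr1, Itpr2, Itpr3, Ryr1, Ryr2, Ryr3, Atp2a2, Orai1, Orai2 and Stim2.

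The 10 genes were chosen by their function, out of 21938 protein-coding genes of the GENCODE M21 annotation. Each was taken as its gene body in GRCm38 (mm10) with 10 kb added on each side, and every peak overlapping this span was counted, whether 1, 2 or all 3 antibodies gave it. NEUROD2 binding was measured by chromatin immunoprecipitation and sequencing (ChIP-Seq), in which an antibody recovers the DNA fragments a protein is bound to, in cerebral cortex of untreated BALB/c pups at postnatal day 0, pooled from littermates. The study used 3 antibodies (ab168932, ab104430 and ab109406), and its methods do not say which of them is antibody 1, 2 or 3. Each gave 1 library, and all 3 libraries are of the same strain, age and tissue, so no condition varied. A library of a GFP antibody from the same tissue served only as the control of the peak calling, and the input DNA was not used here. Cortex holds excitatory neurons, inhibitory neurons and glia together, and peaks from pooled tissue do not by themselves tell in which of these cells a site was bound. According to the study, expression of Neurod2 is confined to excitatory neurons. The score of a peak is minus 10 times the log10 of the p that MACS gave it; the lowest score in the lists was 50, and scores were not scaled between antibodies. The lists hold no read counts, so the depth behind a score is unknown and a missing peak says only that none reached the threshold. It is not stated if separate pools of pups were used for the antibodies, so the agreement of antibodies covers the antibody and the library and may not cover differences between animals.

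The 10 spans held 30 peaks, which merged into 22 sites of the 12637 in the series when peaks sharing at least 1 bp were joined. Antibody 1 gave 9 of these peaks, antibody 2 gave 16 and antibody 3 gave 5, of 5202, 11196 and 3164 peaks in the whole lists. In 2 sites, 1 in Itpr1 and 1 in Itpr2, all 3 antibodies had a peak, and both are also in the deposited table of shared sites with the same limits. Another 4 sites, in Itpr1, Itpr3 and Ryr3 and upstream of Orai1, had a peak of 2 antibodies, and 16 had a peak of 1 antibody. Orai2 and Stim2 had no peak of any antibody.

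The sequences of the sites on which the comparison rests are shown here: the 2 shared sites of the calcium store genes, the Stim1 site, and for each other gene with a peak its highest scoring site outside untranslated sequence. For Ryr3 a second site is shown because it had the highest density of E-boxes. Each is the plus strand of mm10, up to 300 bases within the limits of the site, in lower case with E-boxes in capitals. The reference genome is of the strain C57BL/6J, while the pups were BALB/c, so bases of the pups may differ.
Stim1 intron 2 (chr7:102369755-102370054): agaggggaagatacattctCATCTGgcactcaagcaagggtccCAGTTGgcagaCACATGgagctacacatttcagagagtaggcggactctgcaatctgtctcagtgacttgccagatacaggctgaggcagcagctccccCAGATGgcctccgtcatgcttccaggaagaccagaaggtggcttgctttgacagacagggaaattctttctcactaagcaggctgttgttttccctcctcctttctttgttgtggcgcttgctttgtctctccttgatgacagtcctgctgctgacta
Itpr1 intron 4, shared site (chr6:108321689-108321988): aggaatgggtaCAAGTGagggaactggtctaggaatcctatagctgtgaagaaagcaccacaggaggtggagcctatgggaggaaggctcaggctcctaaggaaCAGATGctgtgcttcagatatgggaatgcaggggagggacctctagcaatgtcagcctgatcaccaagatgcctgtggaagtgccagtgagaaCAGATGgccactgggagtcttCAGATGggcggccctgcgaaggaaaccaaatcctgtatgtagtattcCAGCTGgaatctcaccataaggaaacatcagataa
Itpr2 intron 36, shared site (chr6:146282116-146282415): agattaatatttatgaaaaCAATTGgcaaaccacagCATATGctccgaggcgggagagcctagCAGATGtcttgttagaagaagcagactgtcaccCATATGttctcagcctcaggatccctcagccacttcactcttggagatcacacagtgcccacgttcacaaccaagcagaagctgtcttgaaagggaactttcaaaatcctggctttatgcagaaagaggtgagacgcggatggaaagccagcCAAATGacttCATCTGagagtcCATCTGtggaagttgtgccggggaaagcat
Itpr3 intron 56 and the start of the next exon (chr17:27120657-27120956): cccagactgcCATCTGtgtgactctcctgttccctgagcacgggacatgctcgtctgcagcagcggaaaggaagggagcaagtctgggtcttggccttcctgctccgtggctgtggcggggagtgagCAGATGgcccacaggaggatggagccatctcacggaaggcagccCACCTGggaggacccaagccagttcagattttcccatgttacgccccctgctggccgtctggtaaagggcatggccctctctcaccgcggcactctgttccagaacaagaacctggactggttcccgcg
Ryr1 intron 48 and the coding exons beside it (chr7:29071613-29071912): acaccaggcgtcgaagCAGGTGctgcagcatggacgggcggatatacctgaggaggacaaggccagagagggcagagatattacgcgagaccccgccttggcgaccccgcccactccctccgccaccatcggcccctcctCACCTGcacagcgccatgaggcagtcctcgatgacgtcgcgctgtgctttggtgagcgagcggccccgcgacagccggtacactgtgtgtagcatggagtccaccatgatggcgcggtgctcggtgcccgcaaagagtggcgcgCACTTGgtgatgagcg
Ryr2 intron 1 (chr13:12105964-12106263): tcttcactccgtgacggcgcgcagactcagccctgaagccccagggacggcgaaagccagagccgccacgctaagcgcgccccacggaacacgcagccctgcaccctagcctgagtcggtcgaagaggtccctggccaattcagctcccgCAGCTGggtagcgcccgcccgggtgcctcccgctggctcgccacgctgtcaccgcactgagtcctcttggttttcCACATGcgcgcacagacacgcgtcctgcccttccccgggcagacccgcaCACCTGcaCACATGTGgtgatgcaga
Ryr3 intron 1, site of antibodies 1 and 2 (chr2:113187195-113187446): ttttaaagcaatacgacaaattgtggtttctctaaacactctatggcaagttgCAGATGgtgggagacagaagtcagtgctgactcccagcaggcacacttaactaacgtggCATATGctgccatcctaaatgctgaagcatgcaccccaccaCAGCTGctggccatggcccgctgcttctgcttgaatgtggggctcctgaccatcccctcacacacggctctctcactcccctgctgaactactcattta
Ryr3 intron 1, near an internal start (chr2:113030762-113030915): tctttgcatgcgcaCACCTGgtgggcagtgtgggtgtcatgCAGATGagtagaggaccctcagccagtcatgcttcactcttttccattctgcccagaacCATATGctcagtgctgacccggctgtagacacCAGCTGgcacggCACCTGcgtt
Atp2a2, downstream of the start (chr5:122501272-122501571): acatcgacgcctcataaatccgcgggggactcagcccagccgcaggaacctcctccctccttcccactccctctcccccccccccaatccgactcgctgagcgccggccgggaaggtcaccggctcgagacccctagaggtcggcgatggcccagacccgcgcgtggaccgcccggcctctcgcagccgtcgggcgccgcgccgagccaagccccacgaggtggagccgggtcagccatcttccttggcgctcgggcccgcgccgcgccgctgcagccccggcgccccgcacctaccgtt
Orai1, upstream (chr5:123006272-123006571): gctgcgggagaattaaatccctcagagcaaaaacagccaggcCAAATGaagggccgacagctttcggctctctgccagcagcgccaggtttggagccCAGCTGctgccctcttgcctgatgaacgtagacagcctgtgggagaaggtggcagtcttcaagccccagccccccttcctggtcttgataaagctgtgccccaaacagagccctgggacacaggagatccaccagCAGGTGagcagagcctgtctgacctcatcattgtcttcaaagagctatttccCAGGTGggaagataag

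Of the 5 E-boxes in the shared Itpr1 sequence, 3 had the form CAGATG, the Itpr2 sequence held a first run of E-boxes and, after a gap, a second run at the other end, and the Stim1 sequence held 4 within 129 bp. The Atp2a2 sequence, of a GC-rich promoter, held none.

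Of the 10 genes, 8 had a peak of at least 1 antibody, and 35.2% of all protein-coding genes did. A site of all 3 antibodies was found in 2 of the 10, against 7.52% of all genes. These shares depend on length: the median span of the 10 genes was 142.2 kb and that of all genes 37.4 kb. Among spans of 200 kb or more, 26.8% of genes had a shared site and 71.4% had any peak; the 4 members of this length, Itpr1, Itpr2, Ryr2 and Ryr3, all had a peak and 2 had a shared site. Any peak was found in 3 of the 4 members with spans of 50 to under 200 kb (background 44.4%) and in 1 of the 2 shorter ones (28.1%). None of the 4 members with spans of 50 to under 200 kb (Itpr3, Ryr1, Atp2a2 and Stim2) had a shared site, where the background was 9.14%, nor did the 2 shorter ones, Orai1 and Orai2, where it was 5.25%. Per length, the 10 spans held 0.810 shared sites per Mb and all protein-coding spans 1.14. The values for the single antibodies were 3.65 against 2.75 peaks per Mb for antibody 1, 6.48 against 6.54 for antibody 2 and 2.03 against 1.75 for antibody 3. With so few genes, the counts are given as a description beside the background and no difference from it was tested.

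**Figure D1:**
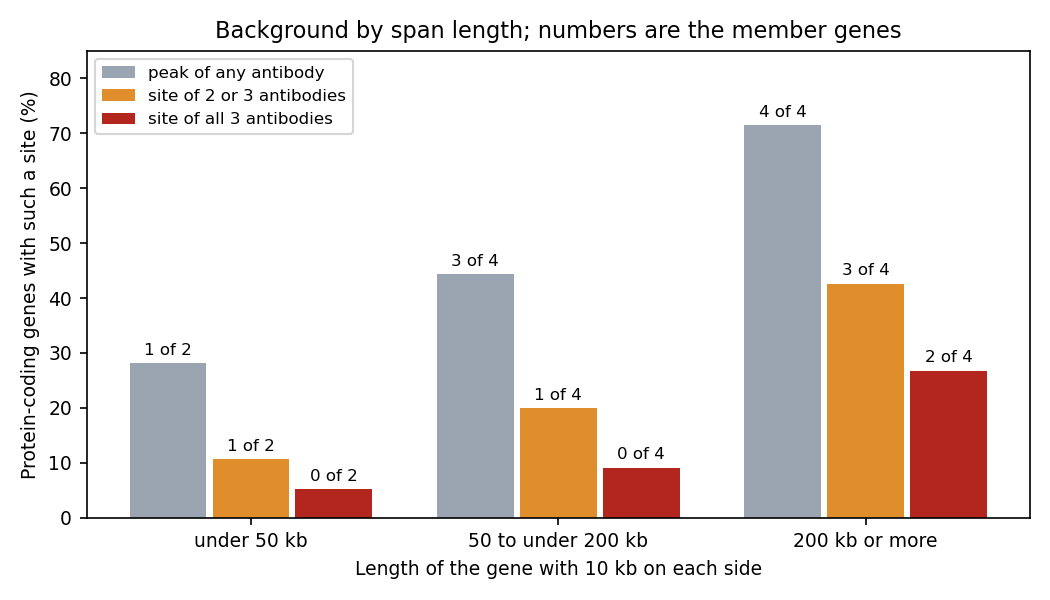
Bars give the share (%) of all protein-coding genes with a peak of any antibody (grey), a site of 2 or 3 antibodies (orange) or a site of all 3 antibodies (red), by the length of the gene with its flanks; the numbers above the bars are the calcium store genes with such a site, of those in the length class. The share rises with length for each kind of site, from 5.25% to 26.8% for sites of all 3 antibodies, and both member genes with such a site are among the longest spans.

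The plot of background by span length sets these counts beside the genes of like size. A site of 2 or 3 antibodies was found in 5 members (Itpr1, Itpr2, Itpr3, Orai1 and Ryr3), against 15.1% of all genes and 42.6% of those with the longest spans, 19.9% of those of middle length and 10.7% of the shortest. Antibody 1 had a peak in 6 members (background 15.4%), antibody 2 in 8 (33.2%) and antibody 3 in 3 (11.1%). In the longest spans these shares were 47.6%, 65.8% and 34.8%, and of the 4 members of that length antibodies 1 and 2 marked all 4 and antibody 3 marked 2. All members that antibody 1 or antibody 3 marked were also marked by antibody 2, the antibody with the longest list, although not always at the same place.

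**Figure D2:**
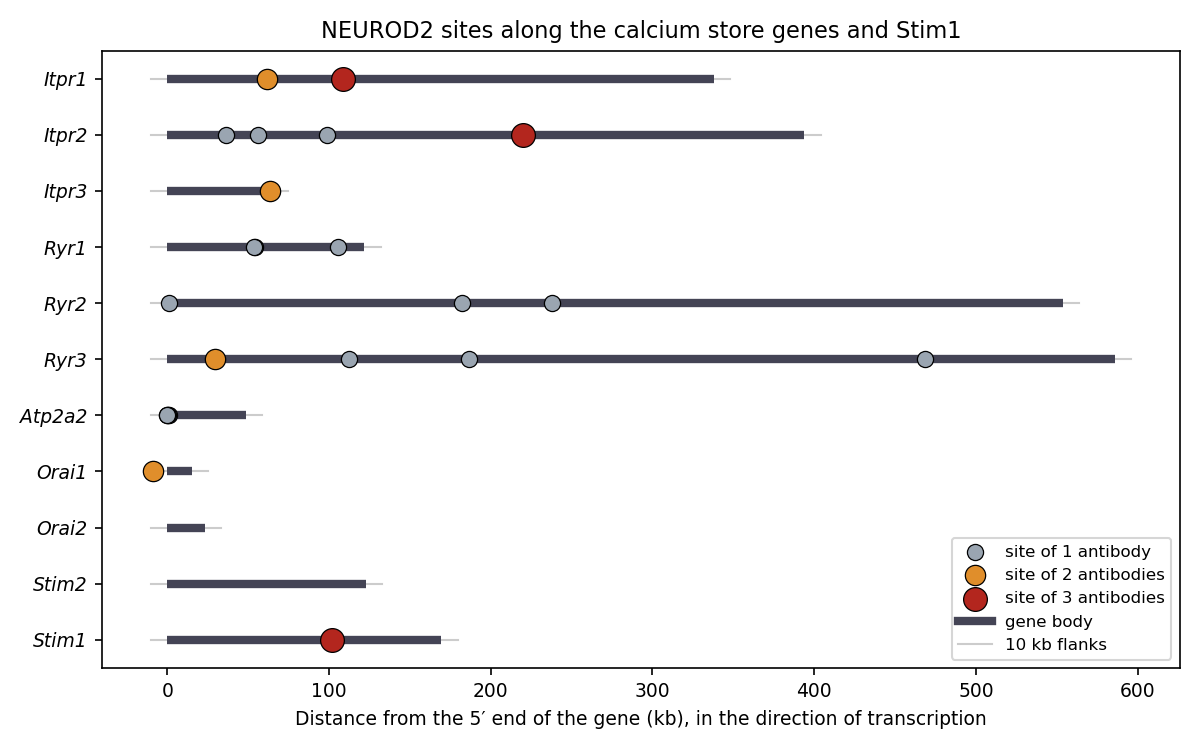
Each gene is drawn from its 5′ end in the direction of transcription, with distance in kb on the horizontal axis; the thick line is the gene body, the thin line the 10 kb flanks, and a circle a NEUROD2 site of 1 (grey), 2 (orange) or 3 (red) antibodies. The shared sites of Itpr1 and Itpr2 lie 108743 and 219957 bp inside their genes, the 4 sites of Atp2a2 fall on top of each other at its 5′ end, and Orai2 and Stim2 have none.

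Itpr1 (ENSMUSG00000030102, chr6:108213096-108551109, plus strand), the main IP3 receptor of neurons, held 2 sites, both in intron 4. The shared site (chr6:108321613-108322065, 453 bp) scored 103.72 with antibody 1, 284.34 with antibody 2 and 109.74 with antibody 3. Its summed score of 497.8 ranked 1257th of the 2088 sites with all 3 antibodies, and 60.2% of those sites scored at least as high. It was thus a site of middle rank, with antibodies 1 and 3 just above a score of 100 and antibody 2 well above it. The midpoint lay 108743 bp downstream of the transcription start site (TSS), 80505 bp from one exon and 17668 bp from the other, and 34415 bp from the closest TSS of any Itpr1 transcript. The stretch that all 3 peaks covered was 228 bp long and held 4 of the 6 E-boxes of the site, 3 of them of the form CAGATG. The other 2 lay toward the left edge, 1 under the peaks of antibodies 1 and 2 and 1 under that of antibody 2 only.

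The other Itpr1 site (chr6:108274305-108274732, 428 bp) lay 61422 bp from the TSS in the same intron. Antibody 1 gave it 101.3 and antibody 2 gave it 128.17, and antibody 3 had no peak there. These scores were close to that of the shared Itpr1 site with antibody 1 and lower with antibody 2. It held 3 E-boxes, all within 128 bp and 2 of them in the 228 bp that both peaks covered.

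Itpr2 (chr6:146108299-146502223, minus strand), the IP3 receptor better known from glia and other non-neuronal cells, held the highest scoring site of the 10 genes. The site (chr6:146282009-146282523, 515 bp, intron 36) scored 424.21 with antibody 1, 598.05 with antibody 2 and 313.99 with antibody 3. Each antibody placed it among its strongest peaks: it was in the top 5.44% of the peaks of antibody 1, the top 2.92% of antibody 2 and the top 5.31% of antibody 3. Among the 2088 shared sites, its rank was 263 by the sum and 278, 320 and 165 by the single antibodies (SD of the 3 ranks 80.2, n = 3). It lay 54723 bp from the closest TSS of a protein-coding Itpr2 transcript. The closest TSS of any gene, that of Gm44086, was 11286 bp away, so it was at no annotated promoter. All 8 of its E-boxes, spread over 291 bp, were in the 386 bp that every antibody covered, and 15.6% of the shared sites held as many or more. The forms were mixed: 3 were CAGATG on one strand or the other, and the other 5 had different central bases.

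The other 3 sites of Itpr2 had a peak of 1 antibody, each scoring only slightly above the lowest value listed. Antibody 1 gave 61.1 at chr6:146403197-146403354 in intron 9, a site with 1 E-box. Antibody 3 gave 53.43 at chr6:146446273-146446400 and 52.92 at chr6:146465567-146465705, both in intron 2 and both without an E-box. These were the only sites of antibody 3 alone in the 10 genes, and in the series 65.6% of the sites of antibody 3 alone held an E-box.

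Itpr3 (chr17:27057304-27122223, plus strand), the IP3 receptor known best from secretory epithelia, held 1 site at its 3′ end (chr17:27120556-27121081, 526 bp). Antibody 2 gave 81.65 and antibody 3 gave 91.99, and antibody 1 had no peak there. It was the only site of the 10 genes with this pair of antibodies. Its midpoint lay in intron 56, 63514 bp from the TSS, and its right part reached over coding sequence of the next exon, which begins 113 bp from the midpoint. It held 4 E-boxes, and its GC content of 60.8% was the highest among the 6 sites of 2 or 3 antibodies.

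**Figure D3:**
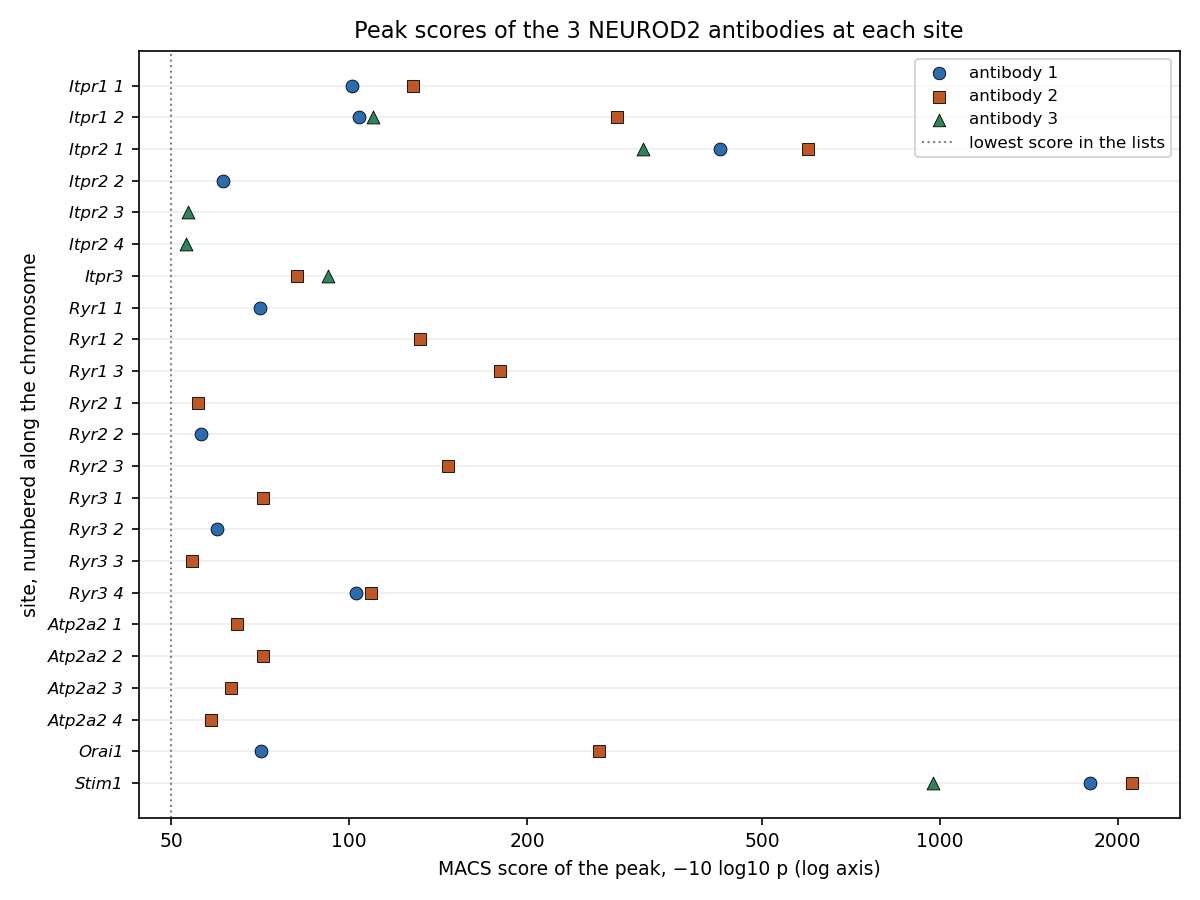
Each point is the MACS score (minus 10 log10 p, log axis) of a peak of antibody 1 (circle), 2 (square) or 3 (triangle) at the 22 sites of the calcium store genes and at the Stim1 site; sites are numbered along the chromosome and the dotted line is the lowest score in the lists. The Itpr2 shared site stands above the rest of the 10 genes with every antibody and below the Stim1 site with every antibody.

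As the plot of peak scores by site shows, the Stim1 site stood far above all others, at 1796.01, 2118.8 and 974.77 with antibodies 1, 2 and 3. The study had picked this site from the same data as one of its highest scoring, so its high place was set beforehand. Within each antibody, where scores can be set side by side, the Stim1 score was 4.23, 3.54 and 3.10 times that of the Itpr2 site. It was 17.3, 7.45 and 8.88 times that of the shared Itpr1 site. The order Stim1, Itpr2, Itpr1 was thus the same with all 3 antibodies. Scores rise with both enrichment and depth, so a ratio of scores is not a ratio of bound protein.

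The ryanodine receptors together had 10 sites and no shared one. Ryr1 (chr7:29003344-29125179, minus strand), known above all from skeletal muscle, held 3, each of 1 antibody. Antibody 2 gave 131.83 at chr7:29070407-29070931, with its midpoint in exon 50, and 180.11 at chr7:29071360-29072064, with its midpoint in intron 48, and antibody 1 gave 70.73 at chr7:29019433-29019808, in exon 91. The site of 180.11 reached beyond intron 48, whose neighbouring exons were 53 and 44 bp from its midpoint, and overlapped coding exons of Ryr1 and an exon of Gm26604. The score of 180.11 was the highest of any site of 1 antibody in the 10 genes. Neither of the first pair lay at the promoter of a protein-coding Ryr1 transcript, since the closest such TSS was 54346 and 53303 bp away. They lay 934 and 75 bp from a TSS of Gm26604, an annotated transcript within the Ryr1 gene. None of the 3 E-boxes of the 180.11 site had the central bases GC, GA or TC, the forms that most shared sites held.

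Ryr2 (chr13:11553102-12106945, minus strand), the ryanodine receptor of heart that is also abundant in brain, had its highest score near its start. At chr13:12105751-12106337 (587 bp), 901 bp downstream of the TSS in intron 1, antibody 2 gave 146.95. This sequence had a GC content of 65.2% and 5 E-boxes, and antibodies 1 and 3 had no peak there. Antibody 2 also gave 55.55 at chr13:11869094-11869262 in exon 9, where 4 E-boxes lay within 33 bp. Antibody 1 gave 56.23 at chr13:11924727-11924866 in intron 2, a site without an E-box, of which 45.7% was marked as repeat. Both of these scores were little above 50.

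Ryr3 (chr2:112631355-113217096, minus strand), the ryanodine receptor found in brain and other tissues at low level, held 4 sites. Antibodies 1 and 2 shared 1, at chr2:113187195-113187446 (252 bp), with scores of 102.86 and 108.96. It lay in intron 1, 29767 bp from the TSS, and its 3 E-boxes were all in the 233 bp covered by both peaks. Antibody 1 alone gave 59.64 at chr2:113030762-113030915, which lay 507 bp from the TSS of a shorter coding Ryr3 transcript and held 5 E-boxes in 154 bp. That is 32.5 E-boxes per kb, the highest density of the 22 sites. Antibody 2 alone gave 71.43 at chr2:112748630-112748860 in intron 60, with 6 E-boxes in 231 bp, and 54.29 at chr2:113104770-113104931 in intron 1, with 2.

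Atp2a2 (chr5:122453513-122502225, minus strand), the gene of the pump that refills the store, had 4 sites, all of antibody 2 alone and all at its promoter. From downstream to upstream they scored 64.67 (chr5:122501265-122501579), 71.46 (chr5:122501680-122501975), 63.01 (chr5:122502016-122502298) and 58.27 (chr5:122502435-122502672). None of the 4 scores reached 100, and antibodies 1 and 3 had no peak in the span. The midpoints lay 803, 398 and 68 bp downstream of the 5′ end of the gene and, for the last, 328 bp upstream of it. Their GC content of 73.5 to 78.7% was the highest of the 22 sites, and they held 0, 1, 2 and 0 E-boxes.

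In the whole series, 47.5% of the sites of antibody 2 alone had their midpoint within 1000 bp of a TSS, and those 3131 sites had a median GC content of 66.4% and a median score of 75.17. The mean number of E-boxes in their central 200 bp was 1.09, the same as in windows 2000 bp away. Among the 22 sites, 8 lay within 1000 bp of a TSS, 7 of them of antibody 2 alone and 1 of antibody 1 alone; of all merged sites 38.6% did. None of the 6 sites of 2 or 3 antibodies did, and in the series 32.9% of the sites of 2 antibodies and 30.9% of those of all 3 did. A site within 1000 bp of one of its own coding TSSs was found for 3 members, Atp2a2, Ryr2 and Ryr3, against 18.6% of all genes. What the peaks of antibody 2 alone at promoters reflect was not tested.

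Orai1 (chr5:123015074-123030456, plus strand), the channel that STIM1 opens, had 1 site, upstream of the gene (chr5:123006034-123006613, 580 bp). Antibody 1 gave 70.96, antibody 2 gave 264.6 and antibody 3 had no peak. With antibody 2 it scored close to the shared Itpr1 site, and with antibody 1 lower. It lay 8751 bp from the TSS and 8461 bp from the gene, the farthest outside its gene of the 22 sites, and held 5 E-boxes, 3 of them in the 262 bp covered by both peaks. The next site outside the limit belonged to Ryr3, 16632 bp from that gene in Aven, with 63.91 from antibody 2 alone.

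Orai2 (chr5:136147459-136170713, minus strand), an ORAI channel with a known role in brain, and Stim2 (chr5:53998499-54121057, plus strand), the STIM protein that responds to small losses of store calcium and is abundant in neurons, had no peak of any antibody. The closest peak to Orai2 was 27979 bp away (62.93, antibody 2 alone), and the closest shared site, in Rasa4, was 44611 bp away. Around Stim2, the closest peak was 295329 bp from the gene (57.05, antibody 2 alone) and the closest shared site 1379620 bp. Among spans of 50 to under 200 kb, the class of both Stim1 and Stim2, 44.4% of genes had any peak. A lack of peaks, as in Stim2, was thus the more common state at this length. No background was made for the distance of 295329 bp. The Stim1 site ranked 7th of 2088 shared sites, but the study picked it as one of its highest scoring. Its place above Stim2 is therefore not a separate result. Orai1, like Orai2, had a shared site nearby, in Tmem120b, 45622 bp from the gene and so outside its span.

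**Figure D4:**
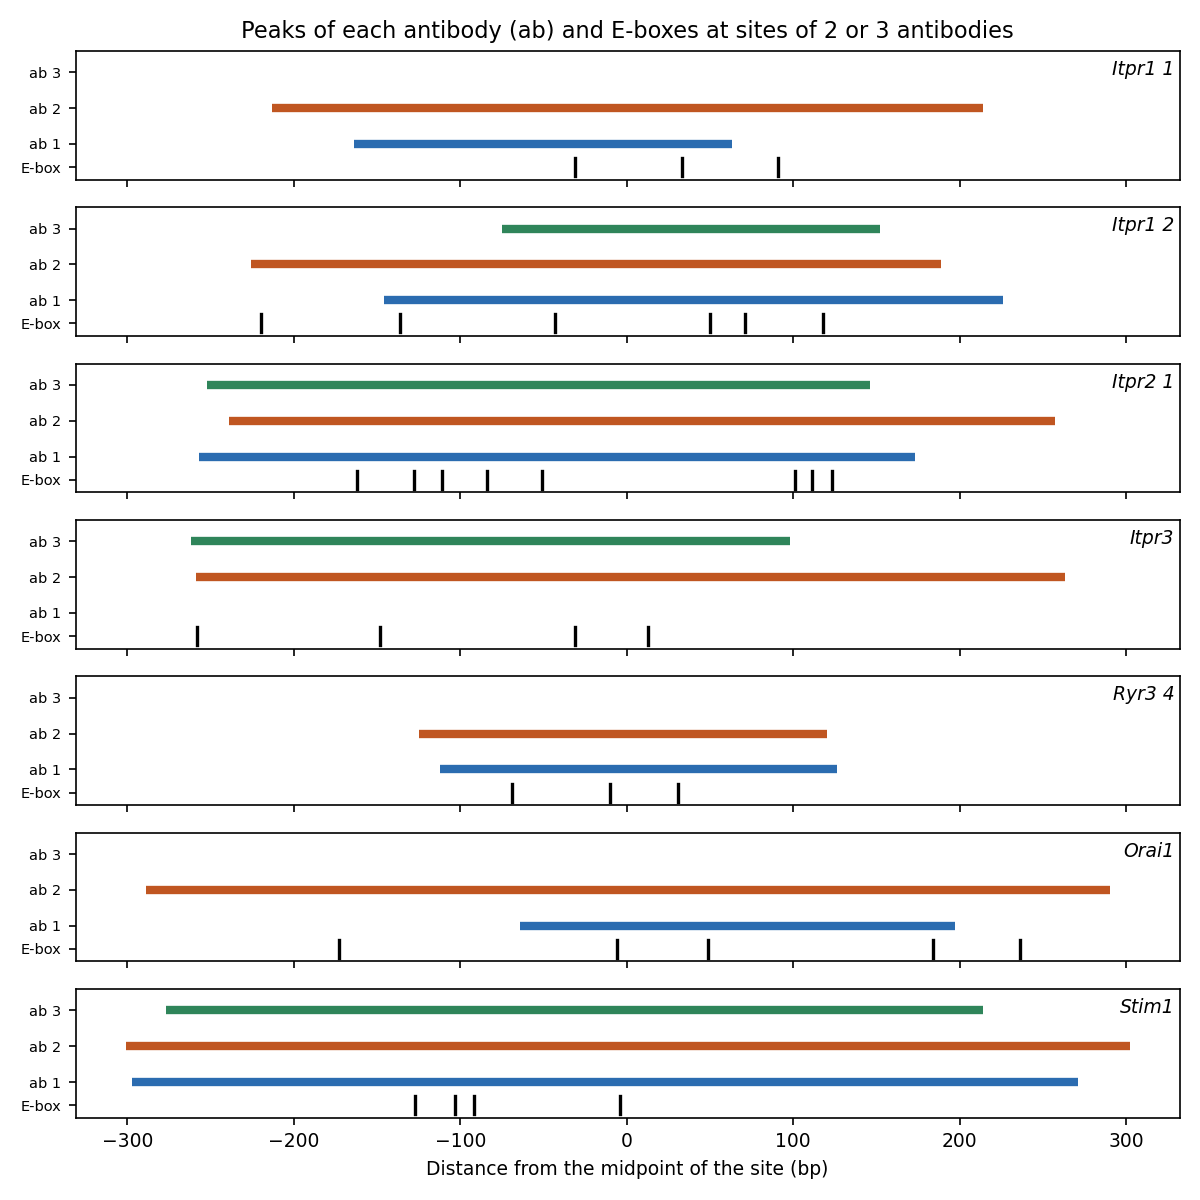
For each site of 2 or 3 antibodies and for Stim1, bars show the extent of the peak of antibody 1 (blue), 2 (orange) and 3 (green) and black ticks the E-boxes, by distance from the midpoint of the site in bp. All 8 E-boxes of the Itpr2 shared site and all 4 of the Stim1 site lie under every peak, while 4 of 6 do in the shared Itpr1 site.

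The plot of E-box positions compares the sites of several antibodies. The 22 sites held 62 E-boxes in 7360 bp, or 8.42 per kb, and 17 of the 22 had at least 1, where 90.6% of all merged sites did. Sites of 1 antibody held 7.16 per kb, sites of 2 held 8.40 and the 2 shared sites 14.5. In the series the same values were 7.34, 8.76 and 8.76 per kb, and 98.7% of the shared sites had an E-box. In the central 200 bp, the 2 shared sites had on average 2.5 E-boxes and windows 2000 bp from their edges 1.25, and over all shared sites these means were 2.44 and 1.15. In windows of this size 66.1% of those flanks held an E-box by themselves. Over their whole length, the Itpr1 site had 13.2 per kb, the Itpr2 site 15.5 and the Stim1 site 6.62. In the central 200 bp these sites did not stand in that order, with 3 E-boxes in Itpr1, 2 in Itpr2 and 2 in Stim1 (10 per kb).

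E-boxes were searched as any CANNTG, which reads the same on both strands, and overlapping matches were counted separately. By their central bases, read on both strands, 17 of the 62 were GA (the form CAGATG), 10 were CC and 8 were GC. The 6 sites of 2 or 3 antibodies held 10 of the 17 E-boxes with GA, and each of these 6 had at least 1 E-box with GA or GC. Of all 62 E-boxes of any form, sites of 2 antibodies held 15 and sites of 3 antibodies 14. A preference for GA at these sites was not tested. At sites of 1 antibody, 8 of 16 had an E-box of these 2 forms, and in the series 92.4% of the sites of all 3 antibodies and 66.1% of those of 1 antibody did; the median length of these classes was 529 and 275 bp. A match is a stretch of letters and not a measured contact.

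**Figure D5:**
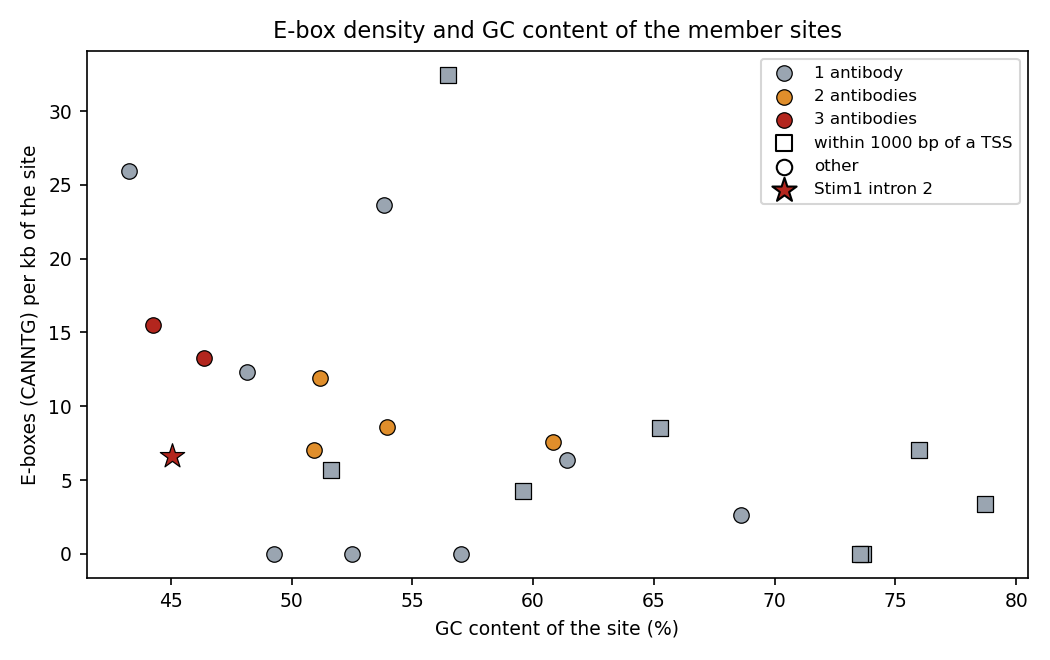
Each point is a site, with its GC content (%) on the horizontal and E-boxes per kb on the vertical axis; grey, orange and red are sites of 1, 2 and 3 antibodies, squares lie within 1000 bp of a TSS, and the star is the Stim1 site. The 2 shared sites of Itpr1 and Itpr2 have a GC content of 46.4 and 44.3%, near the 45.0% of Stim1, and the 4 sites of Atp2a2 are at the right, at 73.5% or more.

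In GC content, plotted against E-box density, the shared sites of Itpr1 (46.4%) and Itpr2 (44.3%) were close to the Stim1 site (45.0%) and below the median of 53.4% of all shared sites. All 3 lay in introns far from an annotated start of their genes. Sites within 1000 bp of a TSS ranged from 51.6 to 78.7% GC. No formal comparison was made, because the 2 sites are single places in the genome.

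A wider list of 63 genes of store and plasma membrane calcium handling was read in the same way. It included Stim1 and none of the 10 genes described above. Of these, 41 had a peak of any antibody (background 35.2%) and 11 a site of all 3 (17.5%, and 16.1% of 62 without Stim1; background 7.52%). Their median span was 71.6 kb, longer than that of all genes; shared sites were found in 3 of the 10 with the longest spans (background 26.8%), 6 of the 28 of middle length (9.14%) and 2 of the 25 shortest (5.25%). Any peak was found in 8, 17 and 16 of these classes, where the background was 71.4, 44.4 and 28.1%. The listed genes with shared sites sat in different roles. Genes that export calcium across the plasma membrane had shared sites in 4 of 7: the calcium pumps Atp2b1 (570.33) and Atp2b2 (2105.97, rank 110 of 2088, and a second site), and the sodium-calcium exchangers Slc8a1 (212.26) and Slc8a2 (815.56), for both of which the site lay in the flank, that of Slc8a2 in another gene, Kptn. Of these 4, Atp2b2 and Slc8a1 had spans of 200 kb or more, where the background was 26.8%, and Atp2b1 and Slc8a2 spans of 50 to under 200 kb, where it was 9.14%. Of 12 listed genes of store-operated entry, Stim1 and the channel Trpc7 (320.68) had one, or 16.7% against 7.52% of all genes. Both had spans of 50 to under 200 kb, where the background was 9.14%. The study chose Stim1 partly for its high scoring site.

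Partners of the release channels had shared sites in 2 of 19, Calm2, a calmodulin gene (868.81, in the flank), and Irag1, a partner of the IP3 receptor (790.65). This share of 10.5% was near the 7.52% of all genes. For spans of their lengths the background was 5.25% (Calm2) and 9.14% (Irag1). Of 7 genes of calcium binding in the store, the chaperone Calr had one in its flank (1687.16), where other genes also lie. Of 4 genes of other store channels, the lysosomal channel Tpcn1 had one of 508.8. These were 14.3% and 25% of small groups, and the background for spans of their lengths was 5.25% (Calr) and 9.14% (Tpcn1). The other pumps of the store and their regulators, Atp2a1, Atp2a3, Pln and Sln, had no peak of any antibody. None of these 4, nor Atp2a2, had a shared site, and the background for spans of their lengths was 5.25% (under 50 kb) and 9.14% (50 to under 200 kb). A site in a span is assigned by place alone, and which gene it acts on, if any, was not measured in these lists.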

How the data were processed

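NEUROD2 ChIP-Seq libraries of 3 antibodies, 1 each, from pooled BALB/c cortex were used. Per the study's methods, Bowtie mapped the reads (mm10) and MACS called peaks of each antibody against the GFP library. In the lists deposited by the authors each peak carries a score, the log10 of its p multiplied by -10, and scores of different antibodies were not scaled to each other; the authors' deposited table of shared sites also holds 1 score per site, which in 2051 of its 2071 sites was, within 0.015, the sum of the peak scores of a site merged here.

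Peaks sharing at least 1 bp were merged, and sites were assigned to GENCODE M21 genes with 10 kb on each side. The transcript named in the deposited table, or otherwise the longest coding transcript, gave exon and intron numbers and, unless stated, the distances to the TSS. E-boxes were read from the mm10 sequence of RefSeq. All 10 genes were named with all their sites, and the wider list of 63 genes was matched in full. The result for 1 gene of this list is not reported here. Members and lists were chosen with earlier results of these data known. No test was made, since no condition varied. The lists hold no counts, so depth and its precision are unknown. Alternatives concerned the flank, score threshold, merging, site assignment, gene limits, E-box definition and windows, score used for ranking, and leaving out each antibody. Merging, assignment and E-box counting were tested on simulated data. Python 3.11.15, numpy 2.4.6, pandas 2.3.3, pysam 0.24.0 and matplotlib 3.10.9 were used. The qPCR, luciferase, knockdown and imaging experiments of the study were not analysed here.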

Additional observations from a re-analysis of the deposited data

How the results depend on the processing

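Of 81 alternative values, 17 moved by more than 1.5 times (counts), beyond the 95% binomial interval (shares) or by more than 1 SD between antibodies (E-boxes per kb and ranks), and 64 did not. For the Stim1 site this SD was 5 E-boxes per kb, so its fall from 10 to 5 with the stricter E-box forms is among the 64. With a 50 kb flank, 4 of the 10 genes had a site of all 3 antibodies (4 sites), the added genes being Orai1 and Orai2, the wider list had 18 such genes and the share of all protein-coding genes was 15.6%; without a flank this share was 5.20%. Peaks with a score of at least 100 left 8 sites in the 10 spans and a share of 3.50%, and the shared sites of Itpr1 and Itpr2 were kept. Asking for only the other antibodies when 1 was left out gave 2 to 4 genes, 2 to 5 shared sites, 12 to 20 merged sites, 10 to 20 genes of the wider list and a share of 7.58 to 13.2%, in each case lowest without antibody 2 and highest without antibody 3. Without antibody 3, Orai1 and Ryr3 joined Itpr1 and Itpr2, and without antibody 2 only 12 of the 22 sites were left. E-boxes per kb in the 2 shared sites were 12.5 in the central 200 bp and 16.25 in the central 400 bp. With 1 antibody left out they were 11.7 to 20 over the 2 to 5 sites then shared. In the flanks they were 6.25, and 0 when only E-boxes with the central bases GC, GA or TC were counted. The rank of the Itpr2 site was 164 by score per length and 221 to 291 with 1 antibody left out. No test, paired or not, was made, and it is not stated if the antibodies shared a pool of pups. Unknown depth, 1 library per antibody and pooled pups limit all values.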
